A study of Drosophila melanogaster with 12 samples.

Results

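The yellow gene family was followed on 12 Affymetrix Drosophila_2 arrays from a study of the transcription factor MiT in Drosophila melanogaster. The 10 genes described are y, yellow-b, yellow-c, yellow-d, yellow-d2, yellow-e, yellow-f, yellow-f2, yellow-h and yellow-k, chosen by their gene symbol in the authors' table. Each had 1 probe set, giving 10 of the 12793 genes named on the array and 10 of its 18952 probe sets. The other 4 yellow genes measured, yellow-e2, yellow-e3, yellow-g and yellow-g2, are given beside them.

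All RNA came from L3 larvae, in 4 groups of 3 arrays. Control wing discs carried the driver nub-Gal4, which is active in the wing-forming region of the disc, although their titles call them wild type. The wing discs labelled as overexpressing MiT, called MiT-labelled discs below, carried nub-Gal4 with UAS-MiT. Hindgut and Malpighian tubules, dissected together and called hindgut-tubule samples, came from larvae of wild type or of the MiT mutant genotype MiTTZ2/Df(4)TZ, with EMSTZ2 in the titles of the mutant arrays. The mutant combines a mutant allele with a deficiency of chromosome 4; the extent of that deficiency, the background strains and the alleles of y that they carry are not given in the sources used here. The labels also do not say whether replicates came from separate cultures, so the p-values measure the spread between these samples alone.

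Yellow proteins are a family of mostly secreted proteins of insects, related to the major royal jelly proteins of the honey bee. The founding member, y, is needed for black pigment in the cuticle. The proteins of yellow-f and yellow-f2 have dopachrome conversion activity, a step of melanin synthesis, while the functions of most other members in the fly are poorly known. Cuticle pigment is made from tyrosine by way of dopa and dopamine, so the enzymes of that pathway form the setting in which yellow genes are usually discussed.

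Mitf, the gene of MiT, was checked first. In hindgut-tubule samples its log2 signal was 7.05, 6.55 and 6.16 in wild type and 4.54, 4.19 and 4.51 in the mutant (limma adjusted p = 0.0118). The control discs read 7.93, 7.91 and 8.15 and the MiT-labelled discs 8.02, 8.11 and 8.21 (limma adjusted p = 0.377), so this probe set showed no rise with the transgene and did not check that label. Replicate arrays correlated at 0.982 to 0.99 in the disc groups and at 0.943 to 0.986 in the hindgut-tubule groups, with mutant array 2 the least like its group (mean correlation 0.952). All 10 listed wing disc genes were higher in the control discs than in the wild-type hindgut-tubule samples and 7 of 8 tubule genes were lower. Of 6 hindgut genes 4 were lower in the discs and 1 was higher. Over all tested probe sets 46.6% were higher in the discs and 29.3% lower.

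The yellow genes differed widely in where they were found. In the control discs 8 of the 10 members had a mean log2 signal over 4, a level below which signals were not told apart from background here, and in the wild-type hindgut-tubule samples 7 had. yellow-k stayed between 2.14 and 2.21 on all 12 arrays, and so was not tested. Signals of different probe sets are not compared, since each binds with its own strength.

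**Figure D1:**
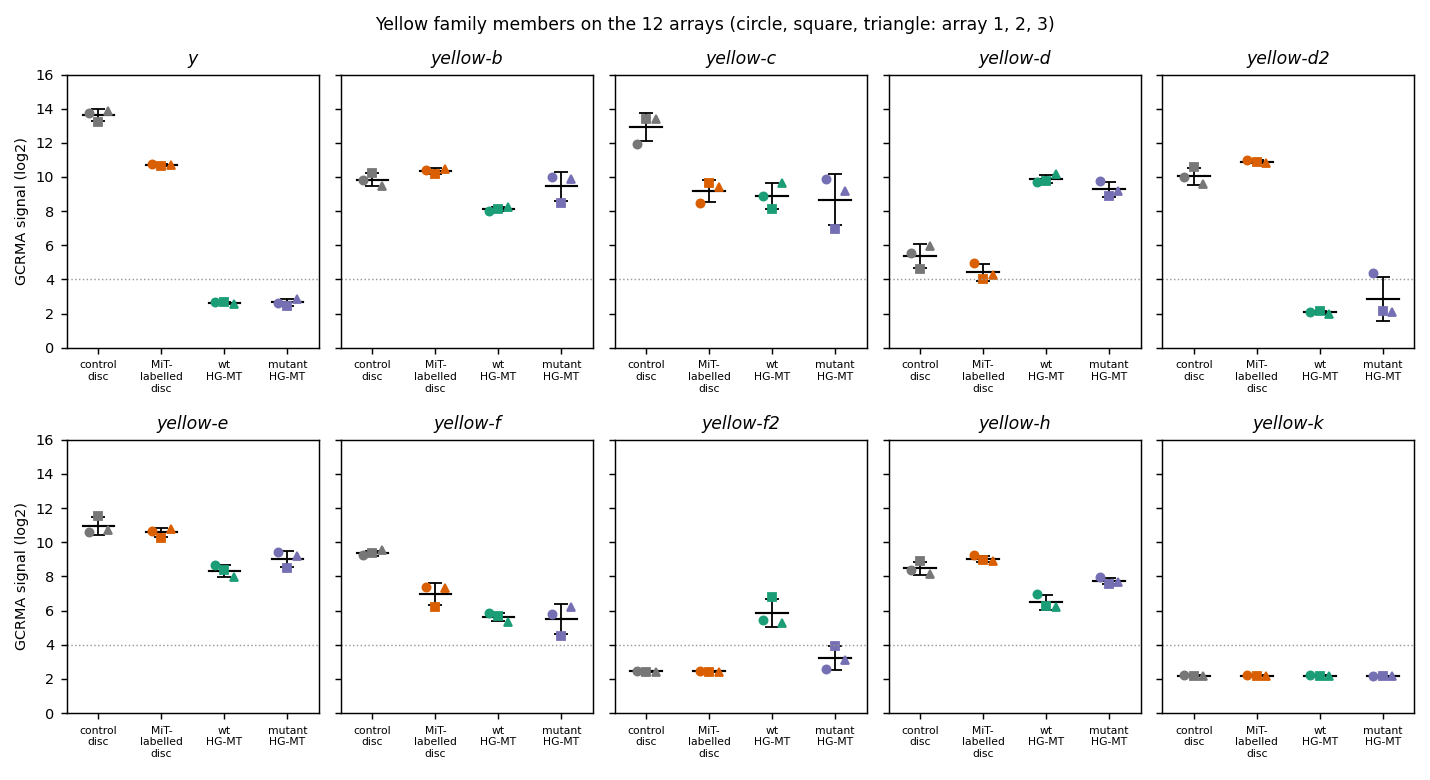
GCRMA signal (log2) of the 10 members on each array, in control discs, MiT-labelled discs, wild-type (wt) and mutant hindgut-tubule samples (HG-MT). Points are arrays, horizontal bars means and error bars SD (n = 3), and the dotted line marks a log2 signal of 4. y stands at 13.24 to 13.88 in control discs and at 10.63 to 10.78 in MiT-labelled discs, and it lies under the line in all hindgut-tubule samples.

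The first comparison placed each member by tissue, control discs against wild-type hindgut-tubule samples. Of the 9 tested members 7 were higher in the discs, beside 46.6% of all 8678 tested probe sets, and 2 were lower, beside 29.3%. y and yellow-d2 passed the filter on dim signals through the discs and yellow-f2 through the wild-type hindgut-tubule samples, so these 3 had to differ here, and the count is given as a description. Tissue and genotype cannot be told apart in this comparison, because the driver was present in the discs alone.

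y and yellow-d2 lay well over the level of 4 in the discs and under it in the wild-type hindgut-tubule samples, so their folds are lower bounds and have no order. The log2 signals of y, 13.74, 13.24 and 13.88 in control discs, stood against 2.65, 2.65 and 2.57 in wild-type hindgut-tubule samples, at least 786-fold (limma adjusted p = 9.66e-08). yellow-d2 gave 9.99, 10.56 and 9.59 against 2.08, 2.15 and 1.99, at least 66.2-fold (limma adjusted p = 9.65e-07). Both genes were thus bright on all disc arrays and under the level of 4 on all wild-type hindgut-tubule arrays.

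Among the members found in both tissues, yellow-c was 16.4-fold higher in control discs (limma adjusted p = 0.00058) and yellow-f 13.4-fold higher (limma adjusted p = 4.31e-06). yellow-e followed at 6.08-fold, yellow-h at 3.94-fold and yellow-b at 3.32-fold (limma adjusted p = 0.000331, 0.000873 and 0.000377). For each of these 5 genes the lowest control disc lay above the highest wild-type hindgut-tubule array.

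Members that neighbour each other in the genome differed in tissue. yellow-d and yellow-d2 lie side by side on chromosome arm 2R in the RefSeq gene order (Release 6). While yellow-d2 was found in the discs, yellow-d was 22.7-fold lower in the discs, with log2 signals of 5.55, 4.62 and 5.96 against 9.72, 9.76 and 10.17 (limma adjusted p = 5.43e-05). yellow-f and yellow-f2 are likewise adjacent, on 3R. yellow-f2 read 2.49, 2.43 and 2.42 in control discs and 5.47, 6.77 and 5.29 in wild-type hindgut-tubule samples, at least 3.58-fold lower in the discs (limma adjusted p = 0.000301), and its neighbour yellow-f was higher there. These probe set names carry no suffix that marks probes shared between genes.

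**Figure D2:**
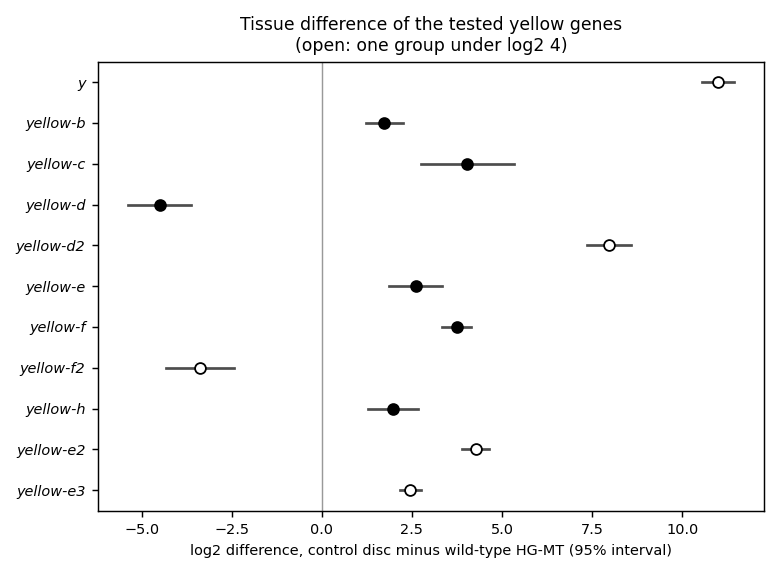
Log2 difference between control discs and wild-type hindgut-tubule samples for the 11 tested yellow genes, with 95% intervals from limma. Values right of 0 are higher in discs; open points have 1 group with a mean log2 signal under 4, so their printed differences are no measure of fold, and yellow-d and yellow-f2 are the ones left of 0.

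Of the yellow genes outside the 10, yellow-e2 and yellow-e3 lie in 1 run with yellow-e on 3R and were likewise higher in discs. yellow-e2 had means of 6.69 ± 0.26 and 2.42 ± 0.08 (SD, n = 3 each; limma adjusted p = 2.14e-06) and yellow-e3 of 4.74 ± 0.16 and 2.29 ± 0.03 (limma adjusted p = 6.76e-06). Both lay under 4 on all hindgut-tubule arrays and passed the filter through the discs, so they too had to differ and their p-values support nothing. yellow-g and yellow-g2, known for their part in the eggshell, had means between 2.03 and 2.2 in every group and were not tested.

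The second comparison asked what changed in discs with the MiT transgene. y, yellow-c and yellow-f fell, by 7.55-fold, 13.3-fold and 5.26-fold, and yellow-d2 rose 1.79-fold. That made 4 of 9 tested members called, beside 30.0% of all tested probe sets, with 3 lower beside 16.1% and 1 higher beside 13.9% (limma, adjusted p threshold 0.05). The groups did not overlap in 5 members, beside 47.8% of probe sets. y, yellow-c and yellow-f alone were called in the 12-array fit, beside 12.4%, with the replicate block, beside 19.4%, and in the authors' deposited table, beside 8.10%. The remaining 5, yellow-b, yellow-d, yellow-e, yellow-f2 and yellow-h, did not pass. The median absolute log2 change was 0.84 over the 9 tested members and 0.21 over all tested probe sets. In the mutant comparison, where 0 members were called, these were 0.70 and 0.25. The members also varied more between replicates in the discs and in the mutant, but hardly in wild-type hindgut-tubule samples. Their median SD over the 10 members was 0.38 in control discs and 0.17 in MiT-labelled discs, against 0.12 and 0.09 over all tested probe sets. In the mutant it was 0.58 against 0.26, and in wild-type hindgut-tubule samples 0.25 against 0.24.

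y read 10.78, 10.63 and 10.68 in MiT-labelled discs, against the 13.74, 13.24 and 13.88 of control discs given above. The 2 groups lay far apart, with every MiT-labelled disc at least as low as 10.78, and y stayed well above background. The log2 change was -2.92 with an SE of 0.17 (limma adjusted p = 0.000408), and 1.08% of tested probe sets changed by this much or more. Leaving out each of the 6 disc arrays in turn kept the call of y (adjusted p from 0.00044 to 0.00352), of yellow-c (0.00524 to 0.0193) and of yellow-f (0.002 to 0.0189).

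yellow-c gave 11.96, 13.39 and 13.38 in control discs and 8.46, 9.67 and 9.41 in MiT-labelled discs. Array 1 was the lowest of its group on both sides, and the groups did not overlap. Its log2 change of -3.73 (SE 0.50, limma adjusted p = 0.00482) was the largest of the family, and 0.415% of tested probe sets changed as much. The level in MiT-labelled discs, 9.18 ± 0.64, overlapped that of wild-type hindgut-tubule samples, 8.87 ± 0.76 (SD, n = 3 each).

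yellow-f, of the dopachrome conversion type, read 9.23, 9.36 and 9.52 in control discs and 7.37, 6.23 and 7.33 in MiT-labelled discs. Control discs lay close together, while MiT-labelled disc 2 was lower than the other two of its group. The log2 change was -2.39 with an SE of 0.32 (limma adjusted p = 0.0048), a size reached by 1.77% of tested probe sets. Its neighbour yellow-f2 stayed between 2.40 and 2.49 in all discs, under the level of 4, and no fold is given for it.

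yellow-d2 moved the other way, from 9.99, 10.56 and 9.59 in control discs to 10.97, 10.90 and 10.80. The 2 groups did not overlap, and the control discs were the more spread. Its log2 change of 0.84 (SE 0.24) passed the threshold narrowly (limma adjusted p = 0.0455) and lost the call with all 12 arrays fitted together (0.362), with a block for the replicate number (0.06), without the filter on dim signals (0.134) and in 5 of the 6 fits without 1 disc array (adjusted p from 0.00964 to 0.118). Of the other yellow genes, yellow-e2 rose by 0.87 (SE 0.13, limma adjusted p = 0.00745), from 6.90, 6.77 and 6.39 to 7.58, 7.54 and 7.56, and kept the call in all 6 of those fits. yellow-e3 did not pass (0.03, SE 0.16).

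For the members that did not pass in the discs, the sizes can be bounded by their 95% intervals. yellow-h read 8.38, 8.89 and 8.14 against 9.25, 8.95 and 8.91, a log2 difference of 0.57 with an interval from 0.05 to 1.08 (limma adjusted p = 0.0921), and its groups did not overlap. yellow-b differed by 0.50 (0.00 to 1.00) and yellow-e by -0.37 (-1.06 to 0.33). yellow-d, dim in discs at 5.55, 4.62 and 5.96 against 4.98, 4.01 and 4.28, differed by -0.96 (-1.96 to 0.04, limma adjusted p = 0.129). Without control disc 2, yellow-b, yellow-h and yellow-d passed as well, at adjusted p = 0.0331, 0.0227 and 0.0434 (limma).

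**Figure D3:**
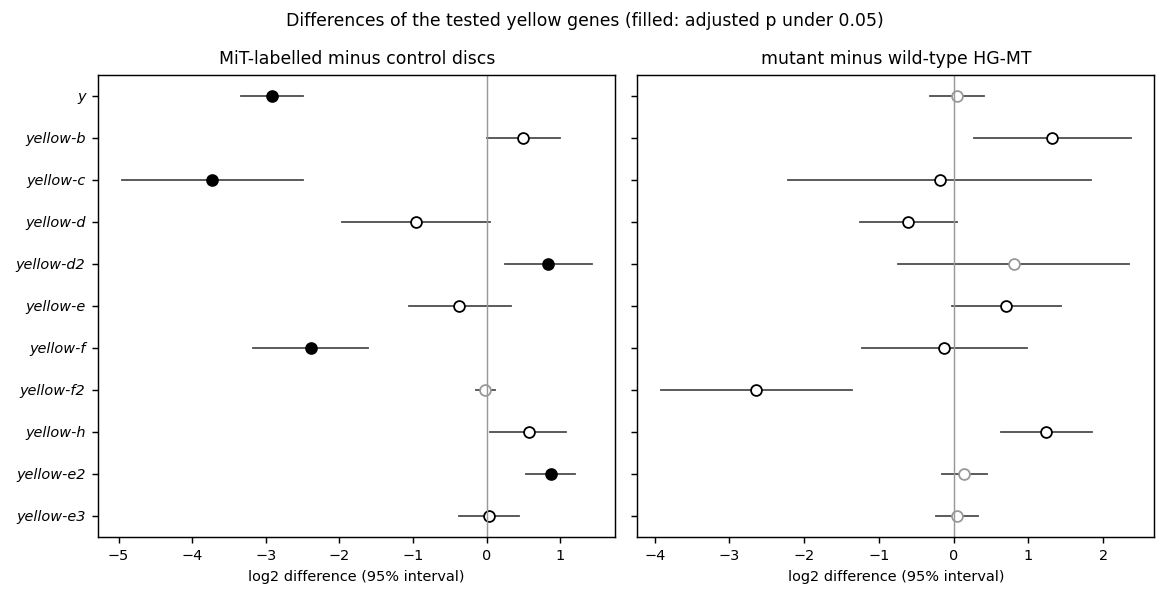
Log2 differences of the 11 tested yellow genes in both MiT comparisons, with 95% intervals from limma; filled points have an adjusted p under 0.05 and grey-edged points a mean log2 signal under 4 in both groups. In the discs y, yellow-c and yellow-f lie left of 0 and yellow-d2 and yellow-e2 right of it; in the hindgut-tubule samples 0 genes are filled.

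A list of catecholamine and cuticle pigment genes was compared in the same discs, as the pathway nearest to the yellow genes. Beside enzymes that make and use dopamine for cuticle it holds Vmat and Fdh, which did not pass, and DAT, which was not tested. Of 12 tested genes of the list 4 fell, beside 16.1% of all tested probe sets, 3 rose, beside 13.9%, and 5 did not pass. Their median log2 change was -0.72, against -0.03 over all tested probe sets. In the 12-array fit 3 fell and 2 rose, beside 12.4% of probe sets called in either direction. ple, the tyrosine hydroxylase that starts the pathway, fell from 4.81, 5.64 and 5.91 to 3.56, 3.47 and 3.41, at least 2.73-fold (limma adjusted p = 0.00585). Ddc, the dopa decarboxylase, fell from 12.83, 13.42 and 13.43 to 11.26, 11.23 and 11.45 (3.77-fold, limma adjusted p = 0.00175). ple was over 4 on the control discs alone, so it passed the filter through them and had to be lower in the MiT-labelled discs. Ddc, bright on every disc array, kept the call in all 6 fits without 1 disc array and lost it in the 12-array fit (0.237).

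Dhpr, which regenerates the cofactor of tyrosine hydroxylase, fell 2.63-fold (limma adjusted p = 0.00697). b, whose enzyme makes the beta-alanine that is joined to dopamine, fell 10.8-fold (limma adjusted p = 0.0254) and lost the call in 4 of the 6 fits without 1 disc array. stw (straw), the laccase of cuticle tanning, rose 1.62-fold, from a mean of 9.93 ± 0.12 to 10.62 ± 0.09 (SD, n = 3 each; limma adjusted p = 0.00408). Hn, the phenylalanine hydroxylase, rose at least 3.19-fold (limma adjusted p = 0.0403, and 0.0998 in the 12-array fit). It was called in 2 of the 6 fits without 1 array. amd also passed as higher, with both group means under 4 (3.05 and 3.93).

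One gene of this list, singled out after its values were seen, differed within groups by more than between them. e (ebony), which joins beta-alanine to dopamine, read 2.90, 12.05 and 12.11 in control discs and 2.42, 9.80 and 2.71 in MiT-labelled discs. The signal was thus near background on control disc 1 and bright on control discs 2 and 3, and MiT-labelled disc 2 alone of its group was bright. Pu, the GTP cyclohydrolase of cofactor synthesis, and b ran the same way on these arrays: b read 10.72, 12.64 and 12.65 against 7.89, 10.02 and 7.82, and Pu 12.04, 13.94 and 13.72 against 11.19, 12.63 and 11.36. yellow-c was also lowest on control disc 1, as was yellow-f by a small margin, and yellow-c was highest on MiT-labelled disc 2, whereas y was lowest on control disc 2 and both y and yellow-f were lowest on MiT-labelled disc 2. Without control disc 1, all 3 falls among the members kept the call (limma adjusted p = 0.00323 for y, 0.00524 for yellow-c and 0.0163 for yellow-f).

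**Figure D4:**
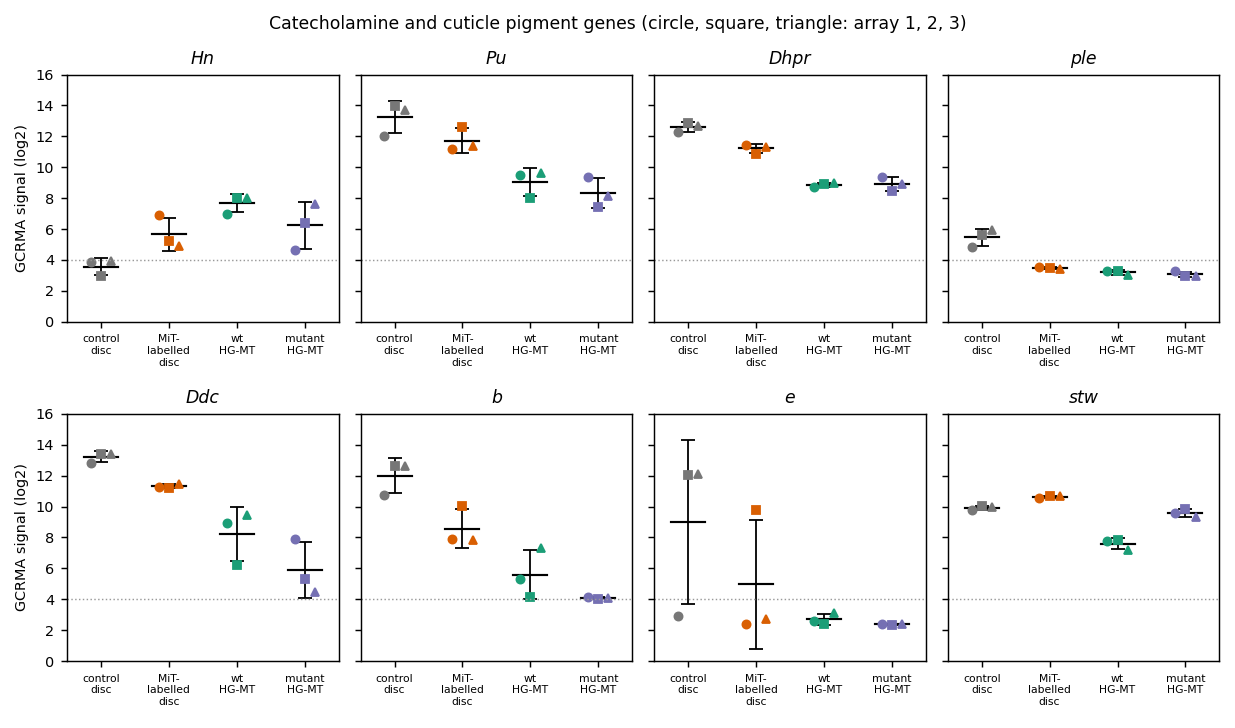
GCRMA signal (log2) of 8 genes of catecholamine synthesis and cuticle pigment on each array, with means and SD (n = 3) as bars; the dotted line marks a log2 signal of 4. ple, which passed the filter through control discs alone, Ddc and Dhpr are lower in MiT-labelled than in control discs on every array, while e is either near background or above 9 within both disc groups.

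Of 9 tested melanization genes of the hemolymph 2 were higher in the discs, beside 13.9% of all tested probe sets, and 2 were lower, beside 16.1%. For so few genes these counts are close to those shares, and the median log2 change was 0.04. Sp7, a protease that activates prophenoloxidase, fell 3.33-fold (limma adjusted p = 0.00464) and MP1, another protease of melanization, 1.44-fold (0.00846). The serpin Spn28Dc and the protease Hayan rose 1.31-fold and 1.2-fold (limma adjusted p = 0.0184 and 0.0372). In the 12-array fit Sp7 alone was called, with 0 higher, beside 12.4% of probe sets called in either direction. Hayan also lost its call with the replicate block (0.0748) and in 5 of the 6 fits without 1 disc array, and Spn28Dc without MiT-labelled disc 2 or 3. PPO1 and PPO2, the prophenoloxidases of crystal cells, did not pass (limma adjusted p = 0.925 and 0.865).

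Genes that mark larval stage and other tissues also moved with the falls of y, yellow-c and yellow-f. In the list of ecdysone response and staging 6 of 12 tested genes fell, beside 16.1% of all tested probe sets, and 1 rose, beside 13.9%. ImpE2 fell 2.27-fold and br, a transcription factor of the ecdysone response, 2.32-fold (limma adjusted p = 0.000327 and 0.00154), while ftz-f1, a nuclear receptor of the prepupa, rose 6.13-fold (0.000446). The mean log2 signal of this list was 8.46 to 8.80 on control discs and 7.72 to 8.12 on MiT-labelled discs. In the 12-array fit 2 fell and 1 rose, beside 12.4% of probe sets called in either direction, and br was among those lost (0.302). The part of larval stage in the changes of the yellow genes was not tested.

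Over all tested probe sets 13.9% were called higher in these discs and 16.1% lower, with 12.4% called in either direction in the 12-array fit. Hemocyte markers had 6 of 8 tested genes higher in MiT-labelled discs and 0 lower, with lz under 4 in both groups. The mean of the hemocyte list was 5.88 to 6.55 on control and 7.64 to 8.17 on MiT-labelled discs. Wing disc genes had 7 of 10 lower, and 4 in the 12-array fit. Among the 7, kn fell 10.2-fold, to a mean of 4.15 that lay close to the level of 4. nub itself fell 2.08-fold (limma adjusted p = 0.00072, and 0.0624 in the 12-array fit). Fat body markers ran from 8.03 to 9.76 on control discs and gave 9.54, 6.30 and 3.75 on MiT-labelled discs 1, 2 and 3, with 0 of 8 passing in limma, 2 at an unadjusted p under 0.05, 0 in the 12-array fit, 1 lower with the replicate block and 4 lower without MiT-labelled disc 1, and Apoltp was under 4 in both groups. Muscle genes had 4 of 9 higher, 2 in the 12-array fit, 1 without control disc 1 or without MiT-labelled disc 1 or 2, 2 without control disc 3 and 8 without control disc 2. Tracheal genes had 2 of 5 higher, and 1 in the 12-array fit. The part of these cells in the results was not tested; fewer cells of a type and less RNA per cell cannot be told apart in such samples.

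Genes whose signals over the 12 arrays were most like those of the 4 called members were sought among all tested probe sets with 1 named gene. The arrays fall into 4 groups and Pearson's r mostly follows their means. For y the nearest were St2, a sulfotransferase, tinc and E(spl)mgamma-HLH, a Notch target (r = 0.999 each). All were called lower in MiT-labelled discs, but they were chosen for likeness to y on these same arrays, so the calls add no support. For yellow-c they were Sf3b6, a splicing factor subunit (0.985), Blimp-1, a transcriptional repressor of the ecdysone response (0.961), and Spn100A, a serpin (0.951). yellow-f ran with l(3)neo38 (0.973), nudC (0.965) and the protease gene spirit (0.962). Blimp-1 and l(3)neo38 had a mean over 4 in control discs alone (5.02 and 4.44). The filter on dim signals thus favoured a profile highest in control discs for both, and their likeness supports nothing. yellow-d2 ran with CG42319 (0.995), N, the Notch receptor (0.994), and CG9839 (0.994). The highest correlation of a called member with another member was 0.945, between y and yellow-d2.

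Genes beside the called members on the chromosome were read for the same discs. ac (achaete), a proneural gene next to y on the X, fell by 0.49 on the log2 scale (SE 0.09, limma adjusted p = 0.0118), and CG32816 on the other side, the nearest gene on the array, by 1.27 (0.0275), though it was over 4 on the control discs alone and so had to be lower. CIAPIN1 beside yellow-c fell by 0.70 (SE 0.09, limma adjusted p = 0.00444), and CG31832 on its other side was not tested, with means of 2.43 in both groups. CG14383 beside yellow-f read a mean of 2.31 in both groups. CG30414 beside yellow-d2 read a mean of 2.09 in MiT-labelled and 2.08 in control discs and was not tested.

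The third comparison asked what changed in hindgut-tubule samples of MiT mutants. Of the 9 tested members 0 passed in limma, beside 4.02% of tested probe sets, 2.10% higher and 1.92% lower. At an unadjusted p under 0.05 there were 3, yellow-f2, yellow-h and yellow-b, beside 18.9% of tested probe sets. These 3 were also the members whose groups did not overlap, beside 26.0% of tested probe sets. The fit with the replicate number as a block called yellow-f2 lower and yellow-h higher, beside 3.39% of probe sets, and the 12-array fit called all 3, beside 15.3%. The authors' deposited table called yellow-f2 and yellow-h, beside 9.93%. yellow-f2 is in each of these counts and had to differ, since it passed the filter through the wild-type arrays alone. The counts are thus given as a description.

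yellow-f2, a dopachrome conversion gene, read 5.47, 6.77 and 5.29 in wild type and 2.58, 3.95 and 3.08 in the mutant. Every mutant array lay under the level of 4 and every wild-type array over it, at least 3.58-fold lower in the mutant. The limma adjusted p was 0.0584, and 0.0198 with the replicate block. The gene passed the filter through the wild-type arrays alone, so a difference had to appear. In the authors' deposited table its adjusted p was 0.0128.

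yellow-h, the member on chromosome 4, read 6.99, 6.29 and 6.20 in wild type and 7.95, 7.57 and 7.69 in the mutant. The lowest mutant array stood above the highest wild-type one. The log2 difference was 1.24 with an SE of 0.25, or 2.36-fold (limma adjusted p = 0.0599, and 0.0457 with the replicate block), and the adjusted p was 0.0345 in the authors' deposited table. Mitf lies on the same chromosome, with 61 of its 80 protein-coding genes between them in the RefSeq order. The genes on either side of yellow-h, CG31999 and CG1674, differed by 0.44 and 0.75 (limma adjusted p = 0.176 and 0.0599).

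yellow-b read 8.01, 8.10 and 8.25 in wild type and 10, 8.46 and 9.87 in the mutant. Wild-type arrays lay close together, while mutant array 2 stood apart and near them. The log2 difference was 1.32 with an SE of 0.43 (limma adjusted p = 0.173), and without mutant array 2 it was 1.81 (0.00707). Mutant array 2 was the lowest of its group in 7 of the 9 tested members, and wild-type array 3 in 6. Both counts include y, under 4 on all hindgut-tubule arrays, and the same count was not made over all tested probe sets. On mutant array 2 the list of ecdysone response and staging had a mean of 5.06, against 6.54 and 6.24 on the other mutant arrays.

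The other members did not pass in the mutant in the 6-array, blocked or 12-array fit. yellow-c spread widely, with 8.88, 8.11 and 9.63 in wild type and 9.91, 6.98 and 9.15 in the mutant, and its log2 difference of -0.19 had an interval from -2.22 to 1.83, which leaves changes in either direction possible. yellow-f differed by -0.13 (-1.23 to 0.98), yellow-d by -0.61 (-1.26 to 0.05) and yellow-e by 0.70 (-0.02 to 1.43). y stayed between 2.47 and 2.88 in both groups. yellow-d2 read 4.36 on mutant array 1 and at most 2.16 on the other 5 hindgut-tubule arrays.

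Of the list of catecholamine and pigment genes 1 of 12 tested rose in the mutant, beside 2.10% of all tested probe sets, and 0 fell, beside 1.92%. Their median log2 change was -0.45, against 0.00 over all tested probe sets. The gene that rose was stw, from a mean of 7.60 ± 0.35 to 9.60 ± 0.25 (SD, n = 3 each; 4.01-fold, limma adjusted p = 0.0106), and the call was lost without mutant array 1 (0.0571). Over all tested probe sets 18.9% had an unadjusted p under 0.05 in limma, and 15.3% were called in the 12-array fit. Of the melanization list 0 of 9 passed in limma and 0 at an unadjusted p under 0.05, and of the staging list 0 of 12 and 2. The lists of hemocyte, muscle, tracheal and fat body markers each had 0 called, with 1, 4, 0 and 0 at an unadjusted p under 0.05, and 3 muscle genes and 1 hemocyte gene were called higher in the 12-array fit. Of the markers of the dissected tissue 0 passed in limma, with 3 of 8 tubule, 2 of 6 hindgut and 1 of 2 tested midgut genes below 0.05 before adjustment. With all 12 arrays fitted together, the setting that called yellow-b, yellow-f2 and yellow-h, 2 tubule genes were called lower, 2 hindgut genes higher and 1 midgut gene higher; their part in the values of the yellow genes was not tested.

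**Figure D5:**
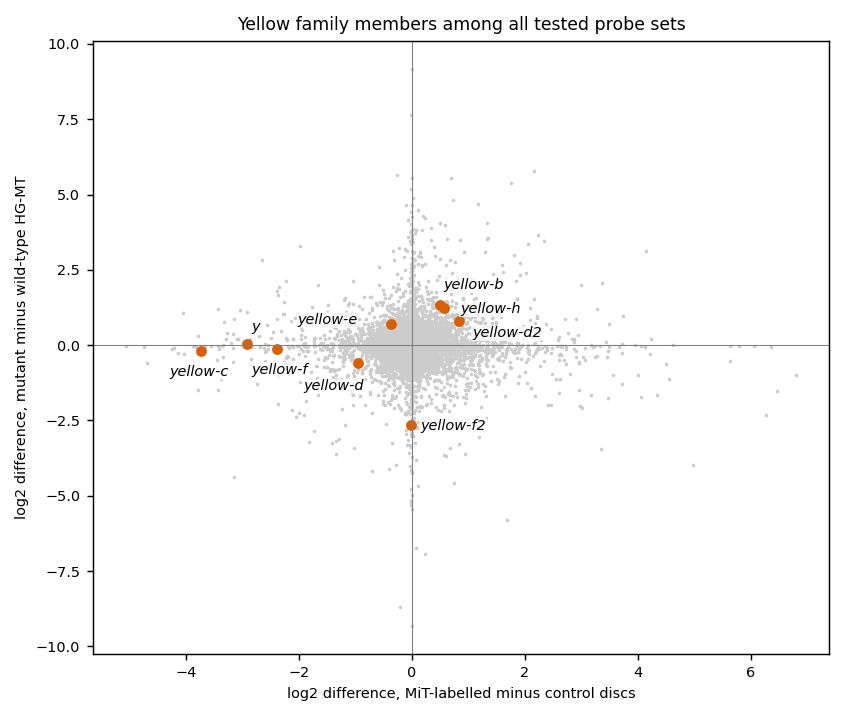
Log2 difference in MiT-labelled against control discs (horizontal) and in mutant against wild-type hindgut-tubule samples (vertical) for all 8678 tested probe sets (grey) and the 9 tested members (orange). y, yellow-c and yellow-f lie far left and near 0 vertically, and yellow-f2 lies near 0 horizontally and at -2.64 vertically, where the mutant mean is under a log2 signal of 4.

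Set side by side, 0 of the 9 tested members were called higher in MiT-labelled discs and lower in the mutant hindgut-tubule samples, beside 0.449% of tested probe sets. The count was also 0 in the 12-array fit, beside 0.772%, and with the replicate block, beside 0.334%, so 0 of 9 is near the background. yellow-d2, which rose in the discs, lay under background in the hindgut-tubule samples but for 1 array, and y on all of them. A fall of either in the mutant could thus not show, so not all 9 could meet the rule. yellow-f2, the member with the lowest mutant values against wild type, lay under background in all discs. The disc and mutant comparisons share no arrays in their own fits, while in the 12-array fit both rest on a common spread over all 12 arrays.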

How the data were processed

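Transcript levels were measured on 12 Affymetrix Drosophila_2 arrays. The authors deposited log2 signals per probe set, made with GCRMA per the submitters' processing notes, which corrects background and normalizes between arrays; its version and the genome build are not given in the sources used here. They also deposited p-values, step-up adjusted p-values and signed fold changes of an analysis of variance, per the file headers, with the disc fold taken from control over MiT-labelled discs; these entered 1 alternative and the values named as theirs. Another 12 columns of per-sample values in that table were not used.

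Groups and replicate numbers came from the titles. After 183 control probe sets were left out, the 8678 probe sets that reached a log2 signal of 4 on 3 or more arrays were tested. In naming, 14508 probe sets had 1 gene, 275 several and 3985 none, through RefSeq accessions and symbols (Release 6); all 10 members matched by accession. A listed gene was represented by its brightest probe set. Where a group mean was under 4, the fold was taken against 4 and is a lower bound.

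Each comparison was fitted with limma 3.58.1 in R 4.3.3 (lmFit, eBayes, Benjamini-Hochberg over all tested probe sets, threshold 0.05) on the 6 arrays it concerns, because replicates varied more in the hindgut-tubule groups (mean SD 0.34 and 0.37) than in the discs (0.18 and 0.15); 3 arrays a group limit the precision. The scripts were tested on simulated data. Exact permutation of 3 against 3 arrays cannot give a two-sided p under 0.1. Same-numbered hindgut-tubule arrays deviated from their group means together, though weakly (r = 0.292, 0.378 and 0.142). Those of the discs gave mixed values (0.335, -0.0538 and -0.179). Any pairing was thus read from the data alone and is uncertain. The main fits had no block for the replicate number, which entered as a block in an alternative fit. Calls in the mutant comparison are those of the unblocked fit unless another setting is named.

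All 10 members and 4 other yellow genes are named, and from each list up to 4 genes of smallest adjusted p. For called members the nearest genes by correlation and by position are named too. Beyond that rule e, Pu, Dhpr, b, Hn, PPO1 and PPO2 were named after their values were seen. Vmat, Fdh, DAT, lz and the genes beside yellow-h were also named beyond it. The members and lists were chosen with earlier results of these data known.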

Additional observations from a re-analysis of the deposited data

How the results depend on the processing

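The falls of y, yellow-c and yellow-f in MiT-labelled discs kept their direction and their call under every alternative that tested them. So did the tissue differences of the 9 tested members. For y, yellow-d2 and yellow-f2, which passed the filter through 1 tissue and had to differ, the kept tissue calls support nothing. A stricter filter (log2 signal of 6) left 1 member lower in the discs than in the hindgut-tubule samples in place of 2, since it no longer tested yellow-f2. In the discs 1209 probe sets were called higher and 1395 lower. With all 12 arrays in 1 fit these were 619 (601 shared) and 457 (440 shared), 419 and 284 in the authors' deposited table, and without 1 array from 767 to 1050 and from 668 to 1165. In the hindgut-tubule samples 182 and 167 became 702 and 626 in the 12-array fit, 468 and 394 in the authors' table, and from 48 to 233 and from 58 to 166 without 1 array. The cause was not tested. The replicate block gave 850 and 837 in the discs and 148 and 146 in the hindgut-tubule samples; beyond yellow-d2, yellow-f2 and yellow-h it changed no other member's call. The member called higher in the discs, 1, became 0 in the 12-array fit, with the block, without the filter and in the authors' table, and 0 to 3 without 1 array. In the mutant, 0 members higher became 2 in the 12-array fit, 1 with the block and 1 in the authors' table. The 0 lower became 1 in these and after quantile normalization, and without 1 array each was 0 to 1. The member lower in the 12-array fit, with the block and in the authors' table was yellow-f2, which had to differ. Without 1 array, differences that had not passed changed sign: yellow-e3 in discs ran from -0.11 to 0.18, and in the mutant y ran from -0.07 to 0.13, yellow-c from -0.81 to 0.66 and yellow-f from -0.48 to 0.37. Signals under 4, 58.0% of all values, limit what can be said of dim genes.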
